A study of Mus musculus with 116 samples.

Results

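The HoxA cluster genes analysed here are 10 members of a predefined list, Hoxa2, Hoxa3, Hoxa4, Hoxa5, Hoxa6, Hoxa7, Hoxa9, Hoxa10, Hoxa11 and Hoxa13, of the 53379 genes counted. They were measured in the 92 of 116 libraries with at least 1000000 uniquely aligned reads that made up at least 60% of all reads. The libraries are bulk Smart-Seq2 RNA-seq of cells sorted by color from mouse neocortex, each made from a pool of 2 to 3 cortices. The study asked how loss of Eed acts when single cells lose it in an otherwise normal tissue and when the whole tissue loses it. MADM, mosaic analysis with double markers, labels daughter cells by a rare exchange between chromosomes, here chromosome 7, which carries Eed, whereas the HoxA genes lie on chromosome 6. All paradigms carried the MADM cassettes and Emx1-Cre, which acts in progenitors of the dorsal telencephalon, so that cells of other origin in the tissue are not recombined by it. In control-MADM (MADM7-GT/TG;Emx1-cre) green, yellow and red cells are all Eed+/+. In Eed-MADM (MADM7-GT/TG,Eed;Emx1-cre) the sparse green cells lack Eed (Eed-/-), the yellow ones are Eed+/- and the red ones Eed+/+, and the tissue around them is heterozygous. In cKO-Eed-MADM (MADM7-GT,Eed/TG,Eed;Emx1-cre) all cells of the Emx1 lineage are Eed-/-, whatever their color. Ages ran over E12.5, E13.5 and E16.5 to P0 (the sample labels write E12, E13 and E16), and the labels give the strain as CD1 where the study describes a mixed C57BL/6 and CD1 background. Cells of E12.5 were collected into lysis buffer and those of later ages into RNA extraction buffer, so that this difference and age cannot be told apart.

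HoxA genes encode homeodomain transcription factors that give cells along the body axis their position, from the hindbrain (Hoxa2, Hoxa3) through the neck and thorax (Hoxa4 to Hoxa7) to the limb, the caudal trunk and the urogenital tract (Hoxa9 to Hoxa13). The order of the genes along the chromosome follows the order of their domains along the axis. The forebrain lies in front of all these domains, and the cluster is kept silent there by Polycomb repressive complex 2 (PRC2), which methylates lysine 27 of histone H3. EED is the PRC2 subunit that binds this mark and that the complex needs for its activity.

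The 10 genes lie within 98.5 kb of chromosome 6, at chr6:52162417-52260880 of GRCm38 (GENCODE M21), all on the minus strand, with Hoxa2 at the lower and Hoxa13 at the higher coordinate. Sequence before the start sites is shown because PRC2 is known to gather on CpG-rich DNA, and because the members differ in this feature while they share 1 locus. RefSeq (GRCm38.p6) gave 10 windows of 250 bases upstream of a start for 9 of the 10 members, with 2 starts for Hoxa10. Hoxa4 had none. The 4 printed windows hold no annotated exon, are written 5′ to 3′ on the minus strand and have each CG in capitals. Hoxa10 (chr6:52240855-52241104) and Hoxa13 (chr6:52260881-52261130) are intergenic there, Hoxa9 (chr6:52227371-52227620) is in an intron of its own longer transcripts, and Hoxa5 (chr6:52204588-52204837) lies within introns of Hoxa3.
Hoxa9: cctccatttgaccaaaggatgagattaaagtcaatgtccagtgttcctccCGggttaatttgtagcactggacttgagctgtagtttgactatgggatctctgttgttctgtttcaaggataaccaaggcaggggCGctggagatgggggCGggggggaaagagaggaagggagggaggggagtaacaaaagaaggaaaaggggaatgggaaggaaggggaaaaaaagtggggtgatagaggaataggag
Hoxa10: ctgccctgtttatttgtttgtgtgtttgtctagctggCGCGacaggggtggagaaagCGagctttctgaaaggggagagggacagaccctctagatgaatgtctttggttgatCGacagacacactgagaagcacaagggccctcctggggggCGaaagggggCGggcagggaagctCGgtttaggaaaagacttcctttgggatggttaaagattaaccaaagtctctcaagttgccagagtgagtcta
Hoxa5: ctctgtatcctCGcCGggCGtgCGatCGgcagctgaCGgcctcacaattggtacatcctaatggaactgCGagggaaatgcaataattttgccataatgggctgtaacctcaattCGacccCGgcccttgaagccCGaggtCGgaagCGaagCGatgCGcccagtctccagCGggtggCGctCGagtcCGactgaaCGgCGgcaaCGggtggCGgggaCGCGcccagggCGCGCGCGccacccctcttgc
Hoxa13: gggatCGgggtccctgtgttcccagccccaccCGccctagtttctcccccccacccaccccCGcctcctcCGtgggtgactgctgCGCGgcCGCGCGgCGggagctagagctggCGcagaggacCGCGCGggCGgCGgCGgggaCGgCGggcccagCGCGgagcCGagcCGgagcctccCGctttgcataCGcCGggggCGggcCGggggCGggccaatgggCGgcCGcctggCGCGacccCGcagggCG
The windows of Hoxa9 and Hoxa10 hold 3 and 7 CpG sites, and those of Hoxa5 and Hoxa13 hold 28 and 35. In the windows not printed the number was 6 for Hoxa2, 7 for Hoxa7, 13 for Hoxa11, 18 for Hoxa3, 24 for Hoxa6 and 20 for the second start of Hoxa10. The median over 32841 promoter windows of the same length was 6, and 8 of the 10 member windows were above it. GC content of the member windows lay between 46.4% and 80.0%, around a median of 52.4% over all promoters. The motif TATAAA was in 0 of the 10 windows when read on the strand of the gene, where 7.59% of all promoters hold it, and in 1 of 10, the second Hoxa10 window, when read on both strands, where 12.4% of all hold it. These counts describe letters in the windows and were set against no measure of binding.

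The libraries that passed held 865832 to 7249098 reads on genes. Green libraries of E12.5 numbered 5 in control-MADM, 8 in Eed-MADM, with 4 in cKO-Eed-MADM. In the same order those of E13.5 numbered 2, 2 and 4, those of E16.5 3, 5 and 4, and those of P0 5, 9 and 4. The 37 red and yellow libraries came as 0 to 4 per group. Levels are given as counts scaled to 1000000 reads on genes (CPM) after TMM scaling within an age, with the SD between libraries, and reads are the raw counts. As libraries are pools of animals, p-values measure the spread between such pools. Where a group had no read, the level that 3 reads over the group would give is used as the limit. For green control-MADM that limit fell with age from 0.401 CPM (E12.5) through 0.261 (E13.5) and 0.189 (E16.5) to 0.105 CPM (P0). These limits cover counting error only, since single RNA molecules are not tagged in Smart-Seq2. In bulk RNA, a gene in fewer cells and a gene with less RNA per cell cannot be told apart.

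Eed itself, the deleted gene, checked the labels, although its counts include exons outside the deleted part. Its mean level in green E12.5 cells was 105 CPM in control-MADM, 59.7 CPM in Eed-MADM against 41.4 CPM in cKO-Eed-MADM. In the same order it was 63.3, 39.4 and 20.3 CPM in E13.5 cells, 39.2, 17.0 and 18.2 CPM in E16.5 cells and 29.5, 15.5 and 11.7 CPM in P0 cells. At E13.5 green Eed-MADM replicate 2 had 51.0 CPM and replicate 6 27.8 CPM. Yellow Eed-MADM had 34.7 and 51.2 CPM, and green control-MADM 57.6 and 69.0 CPM. At E12.5 green Eed-MADM replicates 1 and 7 (81.9 and 88.1 CPM) lay inside the range of green control-MADM (79.8 to 158 CPM). Whether all cells of these libraries had lost Eed was not tested here. The study also removed green samples whose reads in the deleted part of Eed pointed to inefficient recombination. That step was not repeated, so libraries the study removed may be among those used here. The red P0 library labelled cKO-Eed-MADM replicate 1 stood apart: it had 32.7 CPM of Eed, where replicate 2 had 5.57 and red control-MADM had 26.1 to 30.7, so that its Eed level goes against its label. At E12.5, the green library labelled Eed-MADM replicate 5 held 59 HoxA reads where the other 7 held 0 to 6. Values that rest on the red P0 library or on this E12.5 library are given with and without it. Cortical markers (10 of 10 with reads in every green group) were present throughout, so the labelled tissue was found in the data.

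From E13.5 on HoxA RNA was at or near the counting limit in green control-MADM cells, and it was highest in cKO-Eed-MADM cells of E16.5 and P0. At E12.5 the summed level in green control-MADM was 1.69 ± 2.40 CPM (n = 5). The summed level of the 10 genes per library was 0 CPM in every green control library of E13.5 (n = 2) and E16.5 (n = 3), and 0.171 ± 0.382 CPM at P0 (n = 5), where 1 library held 4 reads on Hoxa5 and the other 4 libraries none. In green cKO-Eed-MADM cells (n = 4 per age) E12.5 libraries summed to 1.40 ± 1.74 CPM, E13.5 ones to 20.7 ± 5.06 CPM, E16.5 ones to 385 ± 101 CPM and P0 ones to 283 ± 51.7 CPM. In green Eed-MADM cells the E12.5 sum was 4.19 ± 8.55 CPM (n = 8; 1.22 ± 1.70 CPM without replicate 5), the E13.5 sum 0.214 ± 0.303 CPM (n = 2), the E16.5 sum 6.09 ± 2.24 CPM (n = 5) and the P0 sum 21.4 ± 7.31 CPM (n = 9). The plot of summed levels by age shows these values for each library.

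**Figure D1:**
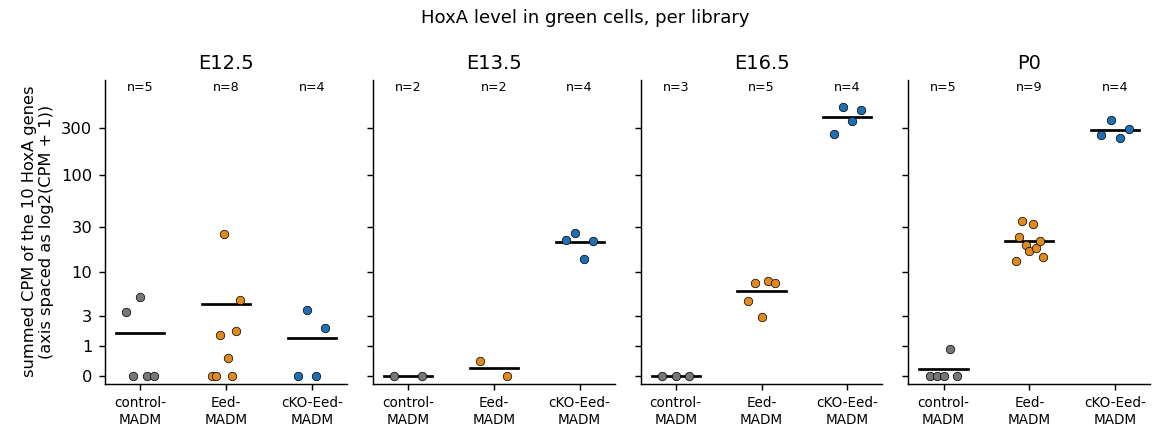
Summed level of the 10 HoxA genes in each green library (points), in CPM on an axis drawn as log2(CPM + 1), by age and paradigm; short lines are group means. From E16.5 on the cKO-Eed-MADM libraries (258 to 477 CPM at E16.5, 237 to 353 at P0) lie above all Eed-MADM libraries (2.86 to 7.91 and 13.1 to 34.1), and the control-MADM libraries of these ages lie at or near 0.

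At E12.5 no paradigm carried a stable HoxA signal. In control-MADM 3 of the 5 green libraries had no read on any member and the others had 4 and 8 reads. In cKO-Eed-MADM 2 of 4 had none, and the others had 3 and 7 reads, so that their levels overlap those of control-MADM. Only Hoxa10, which in the embryo patterns the caudal trunk and the uterus, passed the filter on low counts, and that through the 36 reads of Eed-MADM replicate 5. None of the 3 green contrasts called it, and 0% of the 18100 genes tested was called higher in any of them (edgeR's quasi-likelihood test, adjusted p under 0.05). The count of members at an unadjusted p under 0.05 was also 0, and DESeq2 called 0. Without Eed-MADM replicate 5, 12 HoxA reads remained in the 7 other Eed-MADM libraries.

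At E13.5 reads on Hoxa7, Hoxa10 and Hoxa9 were found in each of the 4 green cKO-Eed-MADM libraries and in none of the 2 control-MADM and 2 Eed-MADM libraries of that age and color that passed the depth limits. Hoxa7, a gene of the thoracic domain, had 8.01, 8.27, 5.51 and 8.61 CPM in replicates 1, 2, 3 and 5, from 31 to 41 reads, with a mean of 7.60 ± 1.41 CPM. Hoxa10 had 5.16 to 11.9 CPM with a mean of 8.42 ± 2.77 CPM, from 29 to 59 reads. Hoxa9, a gene of the caudal trunk and of blood progenitors, had 7, 7, 17 and 18 reads and a mean of 2.48 ± 1.24 CPM. For each of these 3 genes all 4 libraries lay above the 2 control-MADM libraries, as they did for 9.42% of all genes tested. Against the 3-read limit the means were at least 29.1-fold (Hoxa7), at least 32.2-fold (Hoxa10) and at least 9.50-fold (Hoxa9) higher than in control-MADM.

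The remaining members were sparse at this age. Hoxa2, which specifies the second pharyngeal arch and hindbrain, had 6, 16, 0 and 4 reads in replicates 1, 2, 3 and 5. Hoxa3, needed for thymus and parathyroid, had 5 reads and Hoxa5, which acts in lung and neck, had 10 reads, each in 1 of the 4 libraries. Hoxa4, Hoxa6, Hoxa11 and Hoxa13 had no read, which allows a mean of up to 0.152 CPM in cKO-Eed-MADM. In the test, 2 of the 10 members passed the filter, and both passed it only through the cKO-Eed-MADM libraries. Neither was called against control-MADM, with an adjusted p of 0.0933 for Hoxa7 and 0.0815 for Hoxa10, where 0.0297% of 13448 genes were called higher. Both had an unadjusted p under 0.05, and DESeq2 called both. Against the 2 Eed-MADM libraries 0 of 2 were called, at a background of 0.0149%, although again both had an unadjusted p under 0.05 and DESeq2 called both. Of these Eed-MADM libraries, replicate 2 had an Eed level (51.0 CPM) inside that of yellow Eed-MADM cells, as given above.

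By E16.5, 9 of the 10 members had reads in all 4 green cKO-Eed-MADM libraries, and no member had any in the 3 control-MADM libraries. The central and posterior genes Hoxa7, Hoxa10 and Hoxa9 had the most reads. In replicates 1 to 4, Hoxa7 had 95.3, 136, 95.0 and 128 CPM. Hoxa10 had 54.5, 148, 92.6 and 128 CPM. Hoxa9 had 57.6, 104, 75.9 and 99.3 CPM. Replicate 1 was the lowest for Hoxa10 and Hoxa9, and replicate 2 the highest for all 3 genes, and the control-MADM value was 0. The means, 114 ± 21.5, 106 ± 41.0 and 84.1 ± 21.5 CPM, were at least 599.7-fold, at least 557.7-fold and at least 443.8-fold higher than in control-MADM.

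The anterior and middle members followed at lower levels. Hoxa5 had 18.2, 39.0, 42.6 and 57.3 CPM and Hoxa2 had 20.6, 24.6, 16.9 and 20.0 CPM in the same order of replicates. Hoxa3 had 6.87, 15.2, 13.7 and 12.8 CPM. Relative to the mean, the libraries were closer together for Hoxa2 (20.5 ± 3.16 CPM) than for Hoxa5 (39.3 ± 16.1 CPM). Hoxa4 and Hoxa6, both genes of the cervical and thoracic domain, had 2.85 ± 1.98 and 3.72 ± 1.94 CPM. Hoxa11, a gene of the limb and kidney, had 3.37 ± 1.32 CPM. Hoxa13, which patterns digits and the hindgut, had no read.

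In the test at E16.5, 6 of the 10 members passed the filter, all through the cKO-Eed-MADM libraries, and these 6 were called higher than in control-MADM, where 6.16% of 13359 genes were called higher. Since the filter let these members through only where they were high, the count itself lends no support. The adjusted p was 2.29e-06 for Hoxa9, 4.82e-05 for Hoxa7, 7.35e-05 for Hoxa2, 7.84e-05 for Hoxa5, 1.08e-04 for Hoxa10 and 0.00243 for Hoxa3 (edgeR's quasi-likelihood test). As the control group was at 0, the limits given above stand in for a fold.

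**Figure D2:**
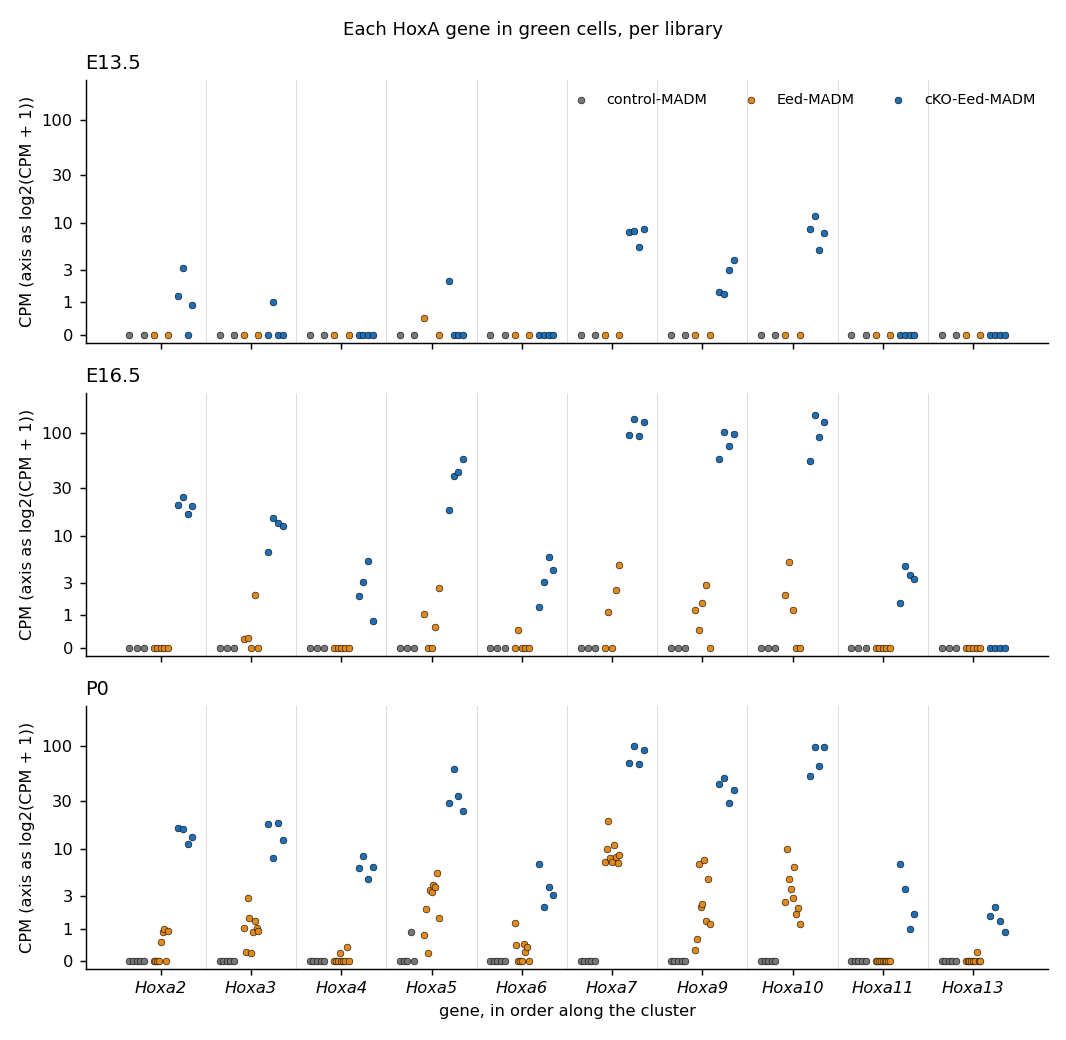
Level of each HoxA gene in every green library at E13.5, E16.5 and P0 by paradigm, on an axis drawn as log2(CPM + 1), with genes in the order of the cluster. Within each cKO-Eed-MADM library Hoxa7, Hoxa9 and Hoxa10 lie highest in CPM at E16.5, and Hoxa7 and Hoxa10 at P0. Hoxa13 has reads in all 4 cKO-Eed-MADM libraries only at P0.

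At P0 all 10 members had reads in each of the 4 green cKO-Eed-MADM libraries. Hoxa7 had 69.8, 102, 68.7 and 93.2 CPM and Hoxa10 had 52.9, 99.2, 65.0 and 97.9 CPM. Hoxa9 had 44.3, 49.6, 28.7 and 38.5 CPM, and Hoxa5 had 28.6, 61.3, 33.8 and 24.3 CPM. The highest library was replicate 2 for each of these 4 genes. Hoxa2 (14.3 ± 2.51 CPM) and Hoxa3 (14.2 ± 4.87 CPM) had nearly the same mean. Hoxa4 had 6.52 ± 1.48 CPM, Hoxa6 4.06 ± 2.09 CPM and Hoxa11 3.35 ± 2.70 CPM. Hoxa13 was the lowest member with 9, 6, 7 and 5 reads, a mean of 1.51 ± 0.554 CPM.

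Of the 5 control-MADM libraries of P0, 1 held 4 reads on Hoxa5 and no other held any HoxA read. Against the 3-read limit Hoxa7 was at least 791.7-fold and Hoxa10 at least 747.9-fold higher in cKO-Eed-MADM. The 6 members that passed the filter, the same 6 genes as at E16.5, were called higher, at a background of 14.2% of 14161 genes. They too passed through the groups in which they were high, and nothing is read from their count. Adjusted p ran from 9.26e-12 (Hoxa7) and 4.10e-09 (Hoxa10) to 1.44e-05 (Hoxa2). Hoxa5, whose control-MADM reads allow a ratio only with replicate 5, which held all 4 of them, was 216.7-fold higher (log2 fold change 7.77 ± 0.84 SE).

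Markers of cortex and of other cell types also differed between these groups, although some ranges overlapped. Interneuron and subpallial markers were higher in cKO-Eed-MADM at E16.5 and lower at P0. The summed cortical markers were 4484 to 4708 CPM in control-MADM and 1853 to 2266 CPM in cKO-Eed-MADM green cells of E16.5, and 2383 to 3208 against 864 to 1011 CPM at P0. Interneuron and subpallial markers were 12.3 to 32.7 against 267 to 521 CPM at E16.5, and 372 to 918 against 191 to 266 CPM at P0. Microglia markers were 8.81 to 17.6 against 22.4 to 63.4 CPM at E16.5 and 17.1 to 62.8 against 196 to 408 CPM at P0. Meningeal and mural markers were 8.79 to 26.0 against 26.9 to 49.1 CPM at E16.5 and 25.8 to 68.3 against 108 to 280 CPM at P0. Endothelial markers were 1.51 to 3.74 against 2.22 to 8.05 CPM at E16.5 and 2.82 to 19.0 against 13.7 to 44.4 CPM at P0. Red blood cell markers overlapped between these groups, with up to 443 CPM at E16.5 and up to 225 CPM at P0. All 10 cortical markers, all 8 microglia markers and all 8 meningeal markers had reads in cKO-Eed-MADM at both ages. Of the 8 endothelial markers Tek had none at either age and Cdh5 and Tie1 none at E16.5, and of the 8 red blood cell markers Hba-x had none at either age. The part of these cells in the HoxA levels was not tested.

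In sparse Eed-/- cells of Eed-MADM, HoxA reads were few at E16.5 and present in every library at P0. At E16.5 replicates 1 to 5 held 22, 33, 18, 42 and 43 HoxA reads, but the genes differed between libraries. Hoxa10 had 10, 23 and 8 reads in replicates 1 to 3 and none in replicates 4 and 5. Hoxa7 had 13 and 28 reads in replicates 4 and 5, 5 in replicate 2 and none in replicates 1 and 3. Hoxa9 had 6, 2, 10 and 15 reads in replicates 1 to 4 and none in replicate 5. Thus no single member had reads in all 5 libraries. Of the 6 members tested 0 were called against control-MADM (at E13.5 it was 0 of 2, with a background of 0%, 0 at an unadjusted p under 0.05 and 0 by DESeq2), where 0.24% of all genes were called higher, but 5 of 6 had an unadjusted p under 0.05 and DESeq2 called 1 of 6. The lowest adjusted p was 0.135, for Hoxa9. Without replicate 5, 1 of 6 was called.

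At P0 Hoxa7 marked the green Eed-MADM cells most evenly. Its 9 libraries ranged from 7.13 through a median of 8.40 to 19.3 CPM, from 29 to 100 reads each. Replicate 3 alone lay above 11.1 CPM. Hoxa10 ranged from 1.20 through 2.88 to 10.1 CPM and Hoxa9 from 0.252 through 2.21 to 7.81 CPM. Hoxa5 ranged from 0.193 through 3.39 to 5.57 CPM, and Hoxa3 from 0.170 through 1.01 to 2.89 CPM. These 5 genes had reads in all 9 libraries. For Hoxa7, Hoxa10, Hoxa9 and Hoxa3 every Eed-MADM library lay above every control-MADM library, as for 1.08% of all genes tested. For Hoxa5 the control-MADM library with 4 reads (0.854 CPM) lay above 2 Eed-MADM libraries (0.193 and 0.757 CPM). Hoxa6 had reads in 5 libraries, Hoxa2 in 4, Hoxa4 in 2 and Hoxa13 in 1, while Hoxa11 had none, which allows up to 0.0671 CPM.

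Of the 6 members tested at P0, 5 were called higher in Eed-MADM than in control-MADM, at a background of 1.52%. As the 6 passed the filter through cKO-Eed-MADM and Eed-MADM, nothing is read from this count. Hoxa7 had an adjusted p of 1.24e-08 and was at least 92.3-fold higher, and Hoxa10 had an adjusted p of 1.06e-04 and was at least 37.6-fold higher. Hoxa9 (at least 29.2-fold, adjusted p = 0.00217) and Hoxa3 (at least 10.5-fold, adjusted p = 0.00609) followed. Hoxa5 was 16.3-fold higher (log2 fold change 4.07 ± 0.81 SE, adjusted p = 0.00765). Hoxa2, with 15 reads in 4 of 9 libraries, was not called (adjusted p = 0.142). When the Eed-MADM and control-MADM libraries were fitted alone, 3 members passed the filter and all 3 were called. Hoxa3 alone lost its call with the replicate number as a block or with the newer form of the edgeR test. Cortical markers of the Eed-MADM cells (2289 to 2919 CPM) overlapped those of control-MADM at P0, as did meningeal markers (15.9 to 74.8 CPM). Microglia markers reached 161 CPM in Eed-MADM and 62.8 CPM in control-MADM at P0, and their part was not tested.

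Green cells are Eed-/- in the sparse (Eed-MADM) as in the tissue-wide (cKO-Eed-MADM) paradigm, and HoxA levels were higher in the tissue-wide one. Other cell type markers differed in this contrast too. At E16.5 cortical markers summed to 3491 to 4918 CPM in Eed-MADM and 1853 to 2266 CPM in cKO-Eed-MADM, and interneuron markers to 17.1 to 63.0 and 267 to 521 CPM. At P0 cortical markers summed to 2289 to 2919 and 864 to 1011 CPM, microglial markers to 13.6 to 161 and 196 to 408 CPM, and meningeal markers to 15.9 to 74.8 and 108 to 280 CPM. The part of these markers in the difference was not tested. At E16.5 the cKO-Eed-MADM mean was 67.0 times the Eed-MADM mean for Hoxa7, 68.5 times for Hoxa9 and 61.1 times for Hoxa10. It was 46.4 times for Hoxa5 and 24.2 times for Hoxa3, and at least 181-fold higher for Hoxa2, which had no read in Eed-MADM. For some genes the ratio depended on 1 Eed-MADM library: without replicate 5 it was 126-fold for Hoxa7 and 97.1-fold for Hoxa5, and without replicate 2 125-fold for Hoxa10. Without replicate 4 only 2 Hoxa3 reads were left in Eed-MADM, too few for a ratio. On the log2 scale of the fit the difference was 6.04 ± 0.63 (SE) for Hoxa7 and 6.07 ± 0.50 for Hoxa9. All 6 members that passed the filter were called (adjusted p from 9.42e-07 for Hoxa9 to 0.00524 for Hoxa3), at a background of 4.45%. They passed it through the cKO-Eed-MADM libraries, so that nothing is read from the count.

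At P0 Hoxa7 was 8.58 times, Hoxa3 12.8 times, Hoxa9 13.1 times, Hoxa5 13.3 times, Hoxa10 19.9 times and Hoxa2 39.6 times as high in cKO-Eed-MADM as in Eed-MADM. The log2 fold changes were 3.09 ± 0.24 (SE) for Hoxa7, 4.29 ± 0.37 for Hoxa10 and 5.28 ± 0.72 for Hoxa2. The 6 were called again (adjusted p from 2.39e-08 for Hoxa7 to 5.09e-05 for Hoxa3), at a background of 11.2%. Here too they passed the filter through groups in which they were high, and nothing is read from the count. Every cKO-Eed-MADM library lay above every Eed-MADM library for each of these genes at both ages, as for 6.45% of all genes tested at E16.5 and 6.15% at P0. The difference in the change of Hoxa7 from E16.5 to P0 was -2.91 ± 0.75 (SE) on the log2 scale in cKO-Eed-MADM minus Eed-MADM, with an adjusted p of 0.0889. In that test of the difference 0 of 6 members were called, where 0.222% of 13519 genes were called in either direction. Of the 6, 3 had an unadjusted p under 0.05 and DESeq2 called 1.

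Along age, the HoxA genes of green cKO-Eed-MADM cells were called higher in the first 2 steps and not in the last. Between E12.5 and E13.5, which also differ in collection, Hoxa7 (0 against 148 reads, adjusted p = 5.66e-05), Hoxa10 (adjusted p = 0.0272) and Hoxa2 (adjusted p = 0.0486) were called among 6 tested, at a background of 13.1%. Hoxa10 and Hoxa2 were lost with DESeq2, which called 1, and only Hoxa7 remained when E12.5 replicate 2, 4 or 5 or E13.5 replicate 2 was left out. From E13.5 to E16.5 all 6 rose, at a background of 5.49%. Since these members passed the filter through the later ages, where they were high, the count lends no support. Hoxa5 rose by 6.16 ± 1.14 (SE) and Hoxa3 by 5.44 ± 1.18 on the log2 scale, Hoxa9 by 5.08 ± 0.89, Hoxa7 by 3.92 ± 0.62, Hoxa2 by 3.91 ± 1.05 and Hoxa10 by 3.66 ± 0.94. The adjusted p ran from 3.55e-05 (Hoxa7) to 0.0165 (Hoxa2), and DESeq2 called 4 of the 6. From E16.5 to P0 the log2 differences lay between -1.08 ± 0.75 (Hoxa9) and 0.22 ± 0.91 (Hoxa3). None of the 6 was called in that step, 0 had an unadjusted p under 0.05 and DESeq2 called 0, where 6.36% of all genes were called higher.

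In green Eed-MADM cells the steps were fewer. From E12.5 to E13.5, 0 of 6 members were called higher, at a background of 7.44%, and 0 lower, at a background of 4.73%. In that step 3 had an unadjusted p under 0.05 with a lower level at E13.5, and DESeq2 called 1 lower. Hoxa10 and Hoxa9 had 36 and 9 reads at E12.5, of which Eed-MADM replicate 5 held 36 and 8. From E13.5 to E16.5 Hoxa7 was called (0 against 46 reads, adjusted p = 0.0131), at a background of 5%. That call was lost when either E13.5 library was left out. From E16.5 to P0 Hoxa7 was called again, with a log2 difference of 2.45 ± 0.52 (SE, adjusted p = 9.04e-04), at a background of 8.93%. The other tested members had differences of 1.08 to 3.61 in that step that were not called.

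The make-up of the HoxA reads changed with age in cKO-Eed-MADM cells. Hoxa7, Hoxa9 and Hoxa10 together made up 90.9 ± 8.34% of the HoxA reads of an E13.5 library, 78.7 ± 2.81% of an E16.5 one and 71.1 ± 5.36% of a P0 one (n = 4 each). In Eed-MADM cells of P0 the same 3 genes made up 76.8 ± 9.16% (n = 9). Hoxa7 alone made up 46.3 ± 9.51% of the HoxA reads of P0 in Eed-MADM, against 29.4 ± 1.79% in cKO-Eed-MADM. These shares are descriptions, with no test. They also depend on gene length, and at E13.5 and in Eed-MADM on few reads.

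**Figure D3:**
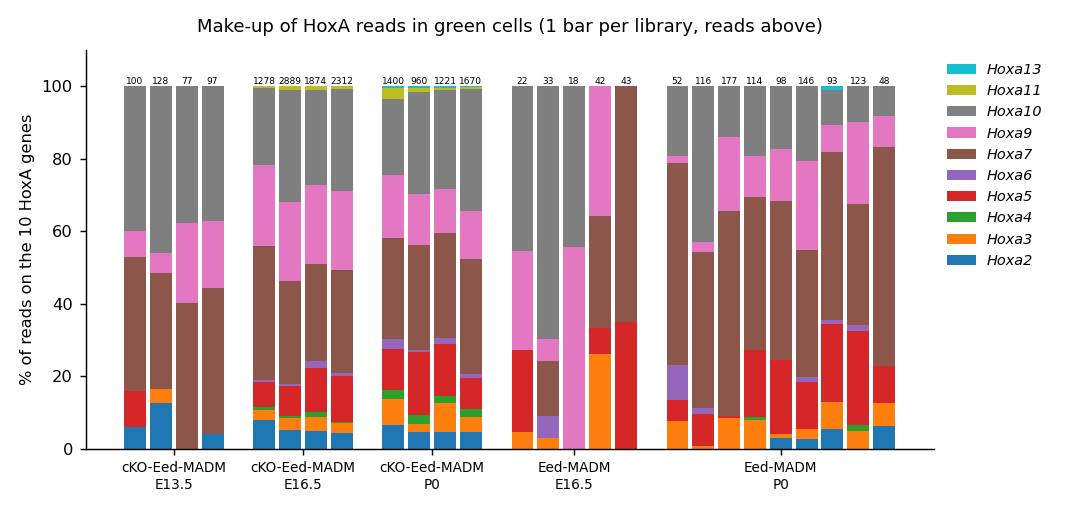
Share of the HoxA reads that fell on each member in each green library (stacked bars, in percent, genes in the order of the cluster), with the number of HoxA reads of the library above its bar. Hoxa7, Hoxa9 and Hoxa10 fill most of every cKO-Eed-MADM bar, 90.9% on average at E13.5 and 71.1% at P0, and the Eed-MADM bars of E16.5, with 18 to 43 reads, differ most from each other.

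To set genes beside each other, CPM was divided by the merged exonic length (CPM per kb). That length merges the exons of all annotated transcripts, with 6014 bases for Hoxa3 and 5580 for Hoxa9 against 1775 for Hoxa2 and 3270 for Hoxa10. Which transcripts the cells held was not tested, so that the places of Hoxa3 and Hoxa9 in the order depend on this length. At E16.5 the cKO-Eed-MADM order was Hoxa7 (39.5 ± 7.47 CPM per kb), Hoxa10 (32.3 ± 12.5), Hoxa5 (20.9 ± 8.60), Hoxa9 (15.1 ± 3.84), Hoxa2 (11.6 ± 1.78), Hoxa6 (4.26 ± 2.22), Hoxa3 (2.02 ± 0.607), Hoxa4 (1.79 ± 1.24), Hoxa11 (1.48 ± 0.578) and Hoxa13 at 0. At P0 the first 3 kept their order with 29.0 ± 5.80, 24.1 ± 7.15 and 19.7 ± 8.89 CPM per kb. Hoxa2 (8.07 ± 1.41) and Hoxa9 (7.22 ± 1.60) came next, and then Hoxa6 (4.65 ± 2.39), Hoxa4 (4.09 ± 0.928), Hoxa3 (2.37 ± 0.809), Hoxa11 (1.47 ± 1.18) and Hoxa13 (0.613 ± 0.224). Several neighbours in this order lay within each other's spread: at E16.5 Hoxa5 was above Hoxa9 in 3 of 4 libraries, Hoxa3 above Hoxa4 in 2 of 4 and Hoxa4 above Hoxa11 in 2 of 4. Hoxa7 was above Hoxa10 in 4 of 4 libraries at E16.5 and at P0, but in 3 of 4 at E13.5.

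The level per kb did not follow the position along the cluster in a single direction. Over the 10 genes Spearman's rho between position, counted from Hoxa2 to Hoxa13, and CPM per kb in cKO-Eed-MADM was -0.15 for E13.5, -0.164 for E16.5 and -0.224 for P0, and that in Eed-MADM of P0 was -0.152. These are descriptions over genes of 1 locus that share libraries. By this measure, which depends on the merged length, Hoxa7 and Hoxa10 lay highest in cKO-Eed-MADM, with Hoxa9 between them lower. Low values lay at the posterior end (Hoxa11 and Hoxa13), near the anterior end (Hoxa3 and Hoxa4) and in the middle (Hoxa6). Hoxa2, at the anterior end, lay above these low members.

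**Figure D4:**
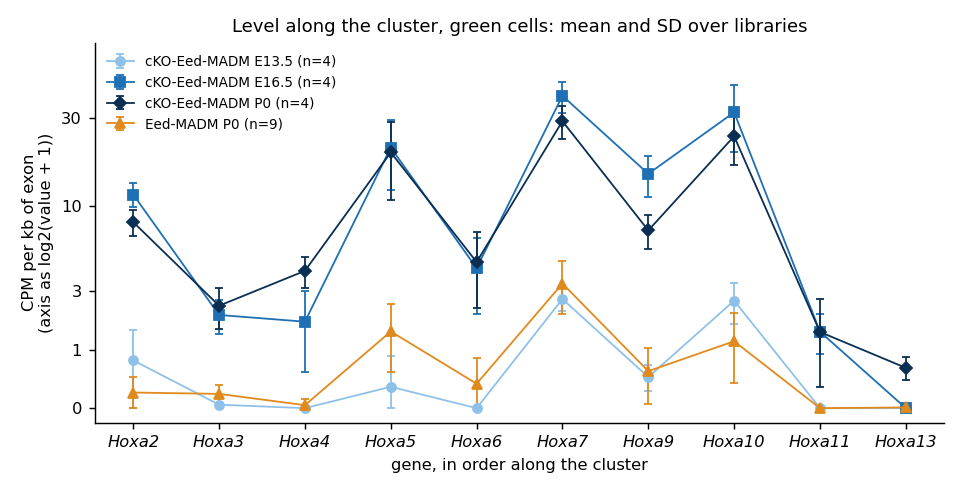
Level per kilobase of exon (mean, bars are the SD between libraries) of the 10 HoxA genes in the order of the cluster, in green cells. In cKO-Eed-MADM of E16.5 Hoxa7 (39.5 CPM per kb) and Hoxa10 (32.3) lie highest and Hoxa13 at 0, and the Eed-MADM values of P0 lie lower, led by Hoxa7 with 3.38.

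Counting without strand leaves out reads in bases that 2 genes share. Hoxa11 shares 35.0% of its exonic bases with Hoxa11os, Hoxa3 27.1% with 5 genes, Hoxa7 20.4% with Hoxaas3, Hoxa4 15.997% with Gm29430 and Hoxa2 15.0% with Gm28308. Hoxa5, Hoxa6, Hoxa10 and Hoxa13 share none. When both strand columns were added, the reads rose to 1.78 times for Hoxa11, 1.29 times for Hoxa4, 1.21 times for Hoxa7 and 1.19 times for Hoxa3, and stayed at 1.0 times for the other 6. Levels of Hoxa11 and Hoxa4 are uncertain, as reads of a gene and of its antisense partner cannot be told apart. Per kb of unshared exon, Hoxa11 and Hoxa4 changed places at E16.5, and rho was -0.15, -0.0909 and -0.248 at the 3 ages.

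Red and yellow cells were compared with green ones. The study states that green cells carry both copies of chromosome 7 from the father and red cells both from the mother. As this may change expression, the study compared only green cells between paradigms. In cKO-Eed-MADM, where all colors are Eed-/-, HoxA sums of red cells were 14.6 and 20.0 CPM and of yellow cells 17.7 and 21.0 CPM at E13.5, inside the range of green cells (13.7 to 25.8 CPM). At E16.5 red cells had 288 and 406 CPM. At P0 the yellow library had 246 CPM, and the red libraries had 87.2 CPM (replicate 1, which stood apart in Eed) and 244 CPM (replicate 2). In replicate 1 Hoxa5 had 19.7 CPM and Hoxa7 22.1 CPM, where replicate 2 had 27.8 and 86.2 CPM, and Hoxa3, Hoxa4, Hoxa6, Hoxa11 and Hoxa13 had no read. That library also had 2274 CPM of interneuron markers and 1041 CPM of meningeal markers, against 267 and 92.6 CPM in replicate 2. The part of these in its HoxA level was not tested.

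Among red cells 6 of 6 tested members were called higher in cKO-Eed-MADM than in control-MADM at E16.5 (background 3.02%) and 6 of 6 at P0 (background 1.91%). For red as for yellow cells these members passed the filter through groups in which they were high, so that nothing is read from the counts. For red Hoxa7 the adjusted p was 5.16e-04 at E16.5 and 9.38e-05 at P0. Without the red P0 library that stood apart 5 members were called. Without either of the red control-MADM libraries of P0, 2 were called. In yellow cells of P0, 6 of 6 were called (background 3.48%), with 1 cKO-Eed-MADM library, whose spread was taken from the other groups, and 3 without control-MADM replicate 2. At E13.5, 0 of 2 members were called in red cells (background 0.0822%, DESeq2 called 0) and 0 of 2 in yellow cells (background 0.00747%, DESeq2 called 1), with 1 control-MADM library each, and both had an unadjusted p under 0.05 in each color.

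Green against red and yellow cells within cKO-Eed-MADM gave no call of a member. At P0 the log2 differences of green against red lay between 0.55 ± 1.21 (Hoxa3) and 1.24 ± 0.96 (Hoxa9), at a background of 2.36%. Of the 6 tested 0 had an unadjusted p under 0.05, and DESeq2 called 0. Without the red library that stood apart 0 were called too, and without red replicate 2 there were 2. At E16.5 the differences lay between -0.26 ± 0.95 (Hoxa3) and 0.77 ± 0.65 (Hoxa2), at a background of 0.0828%, and 0 were called by either tool or at an unadjusted p under 0.05. The standard errors of these differences were 0.47 to 1.24. Against the yellow library of P0 the differences lay between -0.12 ± 1.19 (Hoxa5) and 0.73 ± 1.60 (Hoxa2), at a background of 0%, and again 0 were called by either tool or at an unadjusted p under 0.05.

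In Eed-MADM, color stands for the Eed genotype, and HoxA reads of P0 were found in green Eed-/- cells and almost not in their red Eed+/+ and yellow Eed+/- neighbours. Green and red cells also differ in the parental origin of chromosome 7, so that genotype and origin cannot be told apart in that contrast. The 2 red libraries held 4 reads, all on Hoxa7 and in replicate 1, and 0 reads, and the 2 yellow libraries held none. Hoxa7 was 27.8 times higher in green than in red cells (log2 fold change 4.69 ± 0.85 SE, adjusted p = 0.0251), at a background of 0.0917%. Against yellow cells, with no read, it had an adjusted p of 0.00541, at a background of 0.127%. The other 5 tested members were called in neither, with adjusted p of 0.0739 and 0.0575 for Hoxa10. DESeq2 called 4 of 6 against either color. At E16.5 the 1 red library held no HoxA read, and 0 of 6 members were called (background 0.0527%), with 1 at an unadjusted p under 0.05 and 0 called by DESeq2. Both Hoxa7 calls of P0 were lost when any red or yellow library of the contrast was left out, or with the replicate number as a block.

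Some HoxA reads of E13.5 lay in cells that are not Eed-/-. The red control-MADM library held 40 HoxA reads (11.999 CPM), of which 24 were on Hoxa5, 9 on Hoxa2 and 7 on Hoxa4. The red Eed-MADM replicate 1 held 24, of which 19 were on Hoxa5 and 5 on Hoxa2, and replicate 2 held none. Unlike the green cKO-Eed-MADM libraries, they had none on Hoxa7, Hoxa9 or Hoxa10. Red blood cell markers summed to 119254 CPM in the red control-MADM library and 16459 CPM in the Eed-MADM replicate 1, but to 58207 CPM in replicate 2, and to 1.56 and 1314 CPM in red cKO-Eed-MADM. All 8 of these markers had reads in both red control-MADM and red Eed-MADM, and their part was not tested.

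**Figure D5:**
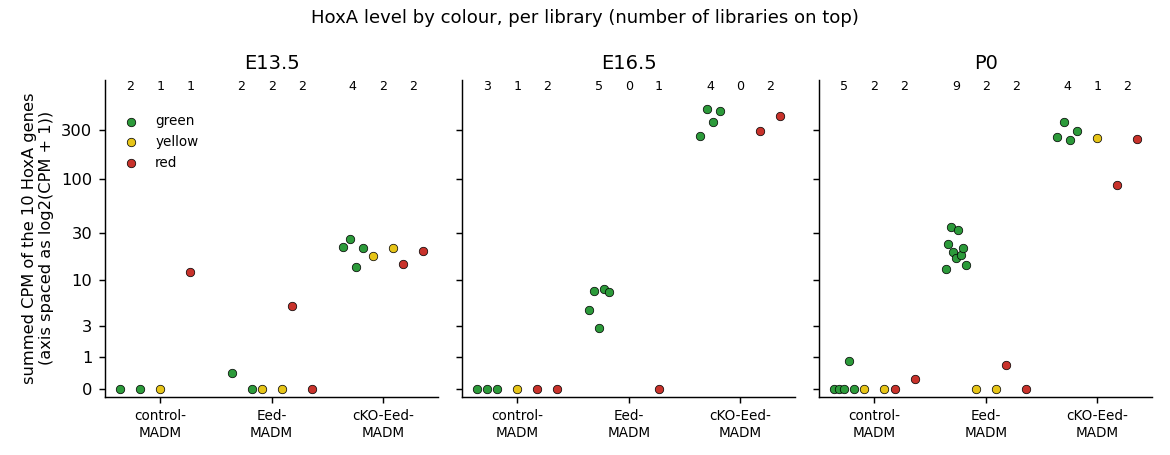
Summed level of the 10 HoxA genes by color of the sorted cells at E13.5, E16.5 and P0, on an axis drawn as log2(CPM + 1), with each library as a point. In cKO-Eed-MADM all colors lie high (at P0 87.2 CPM in the red library that stood apart in Eed, 244 in the other red one and 246 in yellow), while in Eed-MADM of P0 green cells lie high and red (0 and 0.698 CPM) and yellow (0) cells lie at or near 0.

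Of the genes beside the cluster, Skap2, a signalling adaptor of immune cells, was called higher in cKO-Eed-MADM than in control-MADM at E16.5 and P0, and the other 3 tested neighbours were not. In green cells of E16.5 it had 1.86 ± 1.40 CPM in control-MADM, 7.99 ± 2.83 CPM in Eed-MADM, then 34.8 ± 5.52 CPM in cKO-Eed-MADM, and in those of P0 1.97 ± 1.87, 8.23 ± 3.48 and 46.0 ± 9.58 CPM. Against control-MADM the log2 fold change in cKO-Eed-MADM was 4.29 ± 0.57 (SE, adjusted p = 6.24e-05) at E16.5 and 4.52 ± 0.51 (adjusted p = 5.74e-07) at P0. In Eed-MADM it was 2.05 ± 0.45 (adjusted p = 0.0173) at P0. Snx10, Hibadh and Tax1bp1, also outside the cluster, had log2 differences of -0.16 to 0.53 against control-MADM at both ages and were not called. Against Eed-MADM, Skap2 and Hibadh (log2 fold change 0.54 ± 0.18 SE, adjusted p = 0.0375) were called higher in cKO-Eed-MADM at P0.

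Inside and at the ends of the cluster, further transcripts of green cKO-Eed-MADM cells had reads and were too low for the test. The antisense RNA Hotairm1 had 50 reads at E16.5 and 97 at P0. Hoxa11os had 37 and 96 reads, Hoxaas2 55 and 83, and Hoxaas3 49 at each age. Hottip, beyond Hoxa13, had 0 and 5 reads, and the homeobox gene Evx1 further out had 29 and 108 reads, in 2 and 3 of the 4 libraries. Control-MADM had no read on any of these 6 genes at E16.5 and P0.

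HOX proteins bind DNA together with TALE homeodomain cofactors, the PBX, MEIS and PKNOX proteins. In green cKO-Eed-MADM against control-MADM, 3 of 9 tested TALE genes rose at E16.5 (Meis1, log2 fold change 2.31 ± 0.48 SE; Pbx3, 1.99 ± 0.50; Pknox1, 1.01 ± 0.24) and 1 fell, beside 6.16% of all genes called higher and 2.42% called lower. At P0 1 of 9 rose, Pbx3 (1.27 ± 0.29), and 2 fell, among them Meis2 by 1.80, beside 14.2% of all genes called higher and 10% called lower. The list median was -0.09 and -0.15, with medians over all tested genes of 0.00115 and -0.00778. Of the upstream regulators of Hox genes, which include retinoic acid enzymes and receptors, 4 of 7 tested rose at E16.5 (background 6.16%), among them the receptor Rara (1.61 ± 0.32). At P0 3 of 7 rose (background 14.2%), namely Rara (1.96 ± 0.30), Egr2, a hindbrain segment factor (1.68 ± 0.29), and Aldh1a2, which makes retinoic acid (3.47 ± 0.95). The list median was 1.42 at E16.5 and 1.68 at P0. Genes of this list that were low in control-MADM can pass the filter through cKO-Eed-MADM, so nothing is read from its counts or medians.

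Of 12 PRC2 genes 1 fell at E16.5 (2.42% of all genes were called lower), Eed itself, by 1.10 on the log2 scale, and 4 fell at P0 (10% of all genes), Mtf2, named after its value was seen, Eed by 1.32, Ezh2, the methyltransferase, by 0.89 and Rbbp4 by 0.51, while Epop rose (0.62 ± 0.18). Their median was 0.08 and -0.46. Of 11 trithorax and H3K27 demethylase genes, which act against Polycomb silencing, 0 were called at E16.5 and 2 fell at P0, beside the same shares of all genes, the demethylase Kdm6b by 0.83 and the methyltransferase Kmt2b by 0.51, with medians of -0.20 and -0.00476. In the HoxB, HoxC and HoxD clusters 18 of 18 tested genes rose in cKO-Eed-MADM in E16.5 as well as P0 cells, where 6.16% and 14.2% of all genes were called higher. Their list medians were 10.26 and 9.33, where those of the HoxA members tested were 11.26 and 9.94. The Hox counts and medians cover genes that passed the filter mostly through cKO-Eed-MADM, so that nothing is read from the counts. The medians also rest on control groups at or near 0, so that they are no measure of size.

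The genes whose level followed the mean of the HoxA members most closely over the 55 green libraries were mostly other Hox genes. Among 16165 genes with a mean of at least 1 CPM, Pearson's r of log2(CPM + 1) was 0.964 for Hoxc13, 0.959 for Hoxd10, 0.946 for Hoxd4, 0.946 for Hoxc10 and 0.946 for Hoxd3os1, an antisense RNA of the HoxD cluster. Hoxc13 had 65.0 and 62.1 CPM in green cKO-Eed-MADM cells of these late ages, E16.5 and P0, 2.10 CPM in Eed-MADM of P0 and none in control-MADM. Genes outside the Hox clusters followed too, among them Gata4 (rank 10, r = 0.924), Cdkn2b (r = 0.918) and Cdkn2a (r = 0.901). These correlations run over libraries that fall into groups by paradigm and age and are given as descriptions.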

How the data were processed

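RNA of sorted cells was sequenced as bulk Smart-Seq2 libraries, unstranded and without molecular identifiers. The authors deposited, for each library, whole-number counts of uniquely aligned reads per gene, made with STAR on mm10, and the unstranded column was used. The processing notes of the submitters name the tools. Libraries under 1000000 unique reads or under 60% unique reads were left out of the comparisons. Counts were tested with edgeR 4.0.16 (quasi-likelihood test, TMM, Benjamini-Hochberg adjustment over all genes tested) in R 4.3.3, among genes with a mean count over 1 at E12.5 and over 10 later. Green cells of an age were fitted together, as were all colors of an age and green cells of all ages. DESeq2 1.42.0, other filters, the other strand columns, a replicate block and leaving out single libraries were alternatives, and the tests were checked on simulated data. By the check of deviations replicate numbers paired samples for green and yellow Eed-MADM of E12.5 (3 pairs, r 0.105 to 0.332), and there the block changed no call. The same check was met by red Eed-MADM against red control-MADM of P0 (2 pairs, r 0.113). With 2 libraries per group the check cannot decide, as the deviations of both libraries mirror each other. No 2 libraries were identical. All 10 members are described, and from each other list up to 4 genes with the lowest p at an age could be named. The members and lists were chosen with earlier results of these data known. Some genes of the lists are not reported here.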

Additional observations from a re-analysis of the deposited data

Results flagged for a closer look

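Among 37 groups of members with 4 to 10 libraries, 6 had a library far from the others by a gap test with a nominal rate of about 1 in 20. That rate need not hold for counts mostly at 0 or for groups that share libraries, so no excess over chance is read from it. Hoxa10 in green Eed-MADM replicate 5 of E12.5 had 15.3 CPM (36 reads) while the other 7 libraries had 0. That library also held 8 reads on Hoxa9, 6 on Hoxa13 and 4 each on Hoxa7 and Hoxa11. Its meningeal markers summed to 1796 CPM, where the other libraries had 34.2 to 1601 CPM, and their part was not tested. Hoxa5 in green cKO-Eed-MADM replicate 1 of E13.5 had 2.17 CPM (10 reads) and the other 3 had 0. Hoxa3 in green Eed-MADM replicate 4 of E16.5 had 2.07 CPM and the others 0 to 0.229 CPM. In green Eed-MADM of P0, replicate 3 had 2.89 CPM of Hoxa3 (others 0.170 to 1.53 CPM) and 19.3 CPM of Hoxa7 (others 7.13 to 11.1 CPM), and replicate 1 had 1.26 CPM of Hoxa6 (others 0 to 0.434 CPM).

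Of the 24 libraries under the depth limits, which entered no comparison above, 11 held HoxA reads, 7 of them 1 to 3 reads and 4 of them more. The yellow cKO-Eed-MADM replicate 1 of P0 held 975, with 496 on Hoxa9, 251 on Hoxa5, 226 on Hoxa7 and 2 on Hoxa10. Green Eed-MADM of E13.5 held 30 in replicate 3 and 4 in replicate 7, among 59471 and 32233 gene reads. Those of replicate 3 included 10 on Hoxa7, 10 on Hoxa10 and 1 on Hoxa9. The yellow Eed-MADM replicate 3 of E12.5 held 5.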

How the results depend on the processing

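No member called in the reported fit changed the sign of its log2 fold change under the alternatives run. Sign changes of members that were not called were not counted. Of the counts of members called, 235 stayed within 1.5 times of the reported count and 30 did not, and of those that leave out 1 library 205 and 18. The cause was not tested. With DESeq2 the count was 2 (reported 0) for cKO-Eed-MADM against control-MADM and against Eed-MADM in green cells of E13.5, 1 (reported 0) in yellow cells of E13.5, 1 (reported 0) for Eed-MADM against control-MADM at E16.5 and for the difference between paradigms in the change from E16.5 to P0, 1 (reported 3) from E12.5 to E13.5 in cKO-Eed-MADM, 1 (reported 0) in Eed-MADM, 2 (reported 1) from E13.5 to E16.5 in Eed-MADM, and 4 (reported 1) for green against red and against yellow Eed-MADM cells of P0. With no filter on low counts these were 2 and 1 at E13.5, 4 for Eed-MADM at E16.5, 1 for the difference in change, 1 and 3 for the 2 early steps of Eed-MADM, 2 against either color, 1 (reported 0) for cKO-Eed-MADM from E16.5 to P0, and 10 (reported 6) for cKO-Eed-MADM of P0 against control-MADM and against Eed-MADM. At an adjusted p under 0.1 the count for cKO-Eed-MADM against control-MADM at E13.5 was 2. With all libraries it was 1 there, 1 for Eed-MADM against control-MADM at E13.5 and 0 for green against red cells of P0. With only both groups in the fit it was 3 (reported 5) for Eed-MADM against control-MADM at P0.

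Outside green and yellow Eed-MADM cells of E12.5, the check did not settle whether equal replicate numbers mark paired samples. With the replicate block 3 members (reported 6) were called in red and 3 (reported 6) in yellow cKO-Eed-MADM cells of P0, and 0 (reported 1) for green against red and against yellow Eed-MADM cells of P0.

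Leaving out 1 library gave 0 to 1 for the difference in change (1 without Eed-MADM replicate 5 of E16.5), 0 to 2 for green against red cKO-Eed-MADM cells of P0, 2 to 5 for red and 3 to 6 for yellow cKO-Eed-MADM against control-MADM at P0, 1 to 3 from E12.5 to E13.5 in cKO-Eed-MADM, 0 to 2 from E13.5 to E16.5 in Eed-MADM, 0 to 1 for Eed-MADM against control-MADM at E16.5, 1 to 2 from E16.5 to P0 in Eed-MADM (2 without replicate 4 of E16.5), and 0 to 0 for green against red and against yellow Eed-MADM cells of P0. Where a group was left with 1 library, its spread was assumed to be that of the others. With counts near 0, control groups limit every fold to a lower bound.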
